A study of Mus musculus and Rattus norvegicus with 30 samples.

Results

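The genes described here were the 10 voltage-gated calcium channel subunit genes Cacna2d1, Cacna2d2, Cacna2d3, Cacna1a, Cacna1b, Cacna1c, Cacna1e, Cacna1g, Cacna1h and Cacna1i, taken by gene symbol from tables of 54315 mouse and 39281 rat features. All 10 had counts in every mouse library group. In rat 4 of them had counts (Cacna2d1, Cacna2d2, Cacna1b and Cacna1c), 5 were listed at 0 in every library, and Cacna1i had no row by that symbol. The tissue was the dorsal root ganglion (DRG), where the cell bodies of sensory neurons lie, and RNA-seq counts were compared. BALB/c and B10.D2 mice of both sexes had spared nerve injury (SNI), in which the common peroneal and sural branches of the sciatic nerve are cut, or sham surgery, and L3 and L4 ganglia of 1 animal per library were taken at day 28. BALB/c gave 6 sham and 4 SNI libraries, and B10.D2 gave 5 of each. Male Wistar rats had the left L5 spinal nerve ligated and transected (SNT) or exposed only, and each of the 4 sham and 4 SNT libraries pooled L5 ganglia of 3 animals at day 21. The rat libraries are called A to D in each group. A letter stands for the sham and the SNT library that share a number in their titles, which was not taken as a pairing. Mouse libraries are called by the submitters' numbers. The comparisons asked which transcripts differ between injured and sham ganglia.

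A voltage-gated calcium channel consists of a pore-forming alpha1 subunit, which sets the voltage range and pharmacology, and of auxiliary subunits. Alpha2delta subunits sit on the outer face of the membrane, promote trafficking of alpha1 subunits to presynaptic terminals, and are best known in sensory neurons because the product of Cacna2d1 is the binding site of gabapentin and pregabalin. Calcium entry through N-type and P/Q-type channels at the central terminals of these neurons triggers transmitter release in the dorsal horn, and low-voltage-activated T-type channels act near rest and shape burst firing.

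Both alpha2delta genes that changed in the mouse strains, Cacna2d1 and Cacna2d3, start at CG-rich sequence. The RefSeq promoter table (GRCm38, the build also called mm10) held 7 of the 10 genes. The 250 bases before each start are shown for these 2 genes 5′ to 3′ on the gene's strand, with CG dinucleotides in capitals, because they are the members with a called change in both strains. The Cacna2d1 window is chr5:15934441-15934690 on the plus strand, and the Cacna2d3 window is chr14:29721865-29722114 on the minus strand.
Cacna2d1: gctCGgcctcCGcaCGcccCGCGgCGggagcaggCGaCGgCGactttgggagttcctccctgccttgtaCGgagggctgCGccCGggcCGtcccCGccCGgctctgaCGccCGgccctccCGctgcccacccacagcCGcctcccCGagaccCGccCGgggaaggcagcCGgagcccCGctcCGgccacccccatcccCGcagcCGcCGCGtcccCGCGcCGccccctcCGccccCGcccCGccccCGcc
Cacna2d3: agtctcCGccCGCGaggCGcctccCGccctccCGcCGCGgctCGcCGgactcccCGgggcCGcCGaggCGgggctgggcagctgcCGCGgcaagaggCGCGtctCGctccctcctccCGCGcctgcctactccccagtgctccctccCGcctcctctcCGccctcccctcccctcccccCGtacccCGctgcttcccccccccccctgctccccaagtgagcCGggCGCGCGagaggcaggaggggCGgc
The Cacna2d1 window was 82.4% G and C with 36 CG dinucleotides, and the Cacna2d3 window was 80.0% G and C with 30. The median of all 32851 promoters in the table was 52.4% and 6. CG-rich windows were not limited to genes that changed: those of Cacna2d2 and Cacna1b held 34 and 29 CG dinucleotides, that of Cacna1i held 16, that of Cacna1e held 6, and the 3 windows of Cacna1c held 2, 48 and 5. On either strand, no window of the 7 genes held the AP-1 motif TGACTCA, the ATF/CREB motif TGACGTCA, the E-box CACGTG or the partial RE1 motif TTCAGCACC, which were present in 4.46%, 1.55%, 6.02% and 0.301% of all promoters. These 4 motifs do not contain one another. A missing match says only that these letters are not in the window.

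Library totals were 29989963 to 41881331 counts in mouse and 11954612 to 17887909 in rat. All 5 listed neuronal markers were counted in mouse, with summed levels of 5297 to 6300 CPM (counts divided by the normalised library total in units of 1e6) over all groups. In rat 1 of the 5 was counted. Of the others, 3 were listed at 0 in every library and Snap25 had no row by that symbol. Of 10626 protein-coding genes with at least 5 CPM in mouse and a rat row of the same symbol, 37.5% were at 0 in every rat library, and these zeros followed chromosomes: 869 of 869 on mouse chromosome 11 (which holds Cacna1g), 577 of 578 on 8 (Cacna1a), 369 of 370 on 14 (Cacna2d3), 304 of 613 on 1 (Cacna1e) and 188 of 455 on 17 (Cacna1h). The rat zeros of these 5 channel genes are therefore not read as low expression. On the first principal component, rat sham D and SNT A had intermediate positions, -9.24 and 1.12. The other sham libraries were at -59.3 to -45.7, and the other SNT libraries at 39.7 to 62.4. Rat comparisons are also given without both intermediate libraries. That choice leaves out the least separated library of each group and favours larger differences, so these values are no independent check.

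Levels of different genes were compared in mouse as CPM per kb of exon. Cacna2d1 had the highest level in each of the 4 groups, with a mean of 28.4 ± 4.89 CPM per kb (SD, n = 6) in BALB/c sham and 32.9 ± 3.89 (SD, n = 5) in B10.D2 sham. It ranked 1427 of 18355 and 1221 of 18266 protein-coding genes with counts in these groups, and 704 of 18212 and 723 of 18396 in the BALB/c and B10.D2 SNI groups. Cacna1b, the pore of N-type channels, was second in each group at 20.2 ± 2.63 (SD, n = 6) in BALB/c sham and 20.4 ± 1.70 (SD, n = 5) in B10.D2 sham. In BALB/c sham the ranges of Cacna2d1 and Cacna1b overlapped, and in the other 3 groups they did not.

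A middle band of BALB/c sham levels followed, with Cacna2d2 at 7.67 ± 1.13, Cacna1c at 7.60 ± 1.12, Cacna1a at 7.02 ± 1.03, Cacna1h at 5.68 ± 1.58 and Cacna2d3 at 5.57 ± 0.293 CPM per kb (SD, n = 6 each). Neighbours within that band overlapped in range, so their order is not resolved. Cacna1e at 1.85 ± 0.251, Cacna1i at 0.651 ± 0.168 and Cacna1g at 0.309 ± 0.0523 CPM per kb (SD, n = 6 each) then followed without overlap of neighbours. The last 3 places were the same in all 4 groups, while Cacna2d2 fell from the third place in BALB/c sham to the seventh in B10.D2 sham. Of the splice junctions that the authors deposited within each gene's span, 34 to 53 per gene coincided with an annotated intron.

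**Figure D1:**
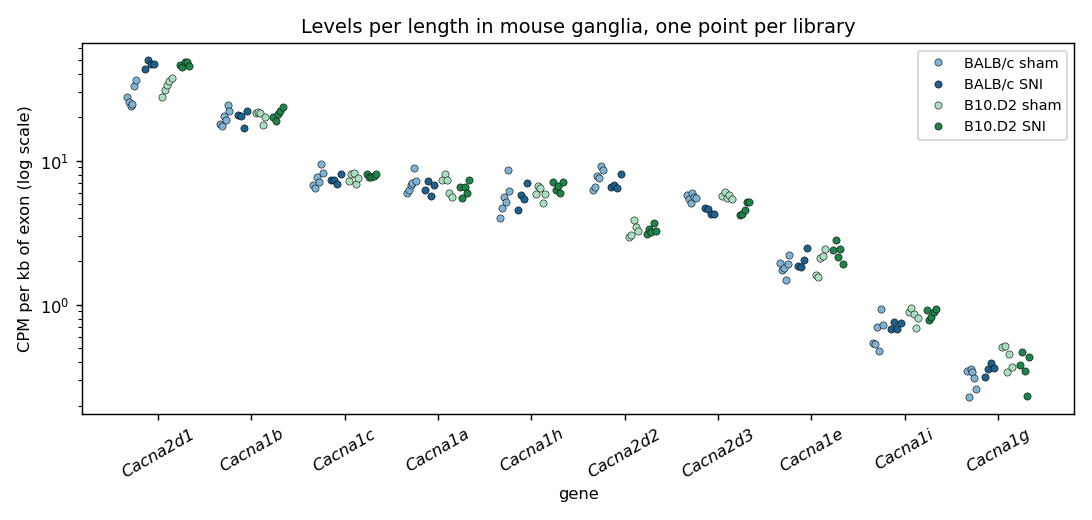
Levels of the 10 genes in mouse ganglia, in CPM per kb of exon on a log axis, with 1 point per library and 4 groups by colour. Cacna2d1 and Cacna1b lie at the top and Cacna1g at the bottom in all groups, and Cacna2d2 separates by strain.

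Among alpha2delta genes, Cacna2d1 rose after injury in both mouse strains and in rat. In the 6 BALB/c sham libraries it had 298, 329 and 447 CPM as lowest, median and highest value. The 4 BALB/c SNI libraries had 534, 616, 580 and 584 CPM (49, 64, 65 and 70), all above every sham library. The fold was 1.64 (95% interval 1.42 to 1.89, log2 fold change 0.71 ± 0.0981 SE, adjusted p = 5.52e-05 by the edgeR quasi-likelihood test with Benjamini-Hochberg adjustment over all features).

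In B10.D2 the rise of Cacna2d1 started from a sham level of 341, 382, 414, 440 and 465 CPM (libraries 58, 60, 67, 77 and 88). The 5 SNI libraries had 573, 551, 598, 598 and 562 CPM (69, 76, 78, 89 and 90). The groups did not overlap, and the SNI values of the strains met, with means of 579 ± 34 CPM (SD, n = 4) in BALB/c and 577 ± 21.3 (SD, n = 5) in B10.D2. The fold in B10.D2 was 1.41 (95% interval 1.22 to 1.63, log2 0.50 ± 0.0982 SE, adjusted p = 0.00412, edgeR).

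In rat, Cacna2d1 had 303, 354, 339 and 746 CPM in sham libraries A, B, C and D, and 934, 1188, 1118 and 1470 CPM in SNT libraries A, B, C and D. No SNT library reached down to a sham library, although sham D stood more than 2 times above each of the other sham libraries. The fold was 2.71 (95% interval 1.74 to 4.21, log2 1.44 ± 0.287 SE, adjusted p = 0.012, edgeR). Without sham D and SNT A the log2 fold change was 1.93 (adjusted p = 3.16e-05, edgeR). Species and surgery, ganglion level, time and library type differed between rat and mouse, and the values are set side by side without a test between species.

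Cacna2d2, whose product also binds gabapentinoids, did not pass the test after injury in mouse but was lower after SNT in rat. In BALB/c the log2 fold change was -0.14 (95% interval -0.33 to 0.06), and in B10.D2 -0.01 (95% interval -0.21 to 0.19). Rat sham libraries A, B, C and D had 48.2, 71.7, 55.8 and 39.6 CPM, and SNT libraries A, B, C and D had 37.9, 29.2, 23.7 and 31.2 CPM. The groups did not overlap, with sham D and SNT A next to each other. The rat fold was 1.77 lower (log2 -0.82 ± 0.195 SE, adjusted p = 0.0168, edgeR). The adjusted p was 0.0504 without sham C and 0.0501 without SNT B, and 0.000953 without both sham D and SNT A (log2 -1.06).

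Cacna2d3, an alpha2delta gene whose loss alters heat and acoustic responses in mice, fell in both mouse strains. The 6 BALB/c sham libraries had 44.6, 48.4 and 52.2 CPM as lowest, median and highest value, and the 4 SNI libraries had 40.8, 40.5, 37.1 and 37.3 CPM (49, 64, 65 and 70). In B10.D2 the sham libraries 58, 60, 67, 77 and 88 had 49.8, 52.5, 48.0, 50.6 and 47.6 CPM, and SNI libraries 69, 76, 78, 89 and 90 had 36.5, 37.0, 39.6, 45.2 and 45.1 CPM. Neither strain had overlap, and SNI 89 and 90 came nearest to sham. The fall was 1.25-fold in BALB/c (log2 -0.32 ± 0.0583 SE, adjusted p = 0.000997, edgeR) and 1.21-fold in B10.D2 (log2 -0.28 ± 0.057 SE, adjusted p = 0.0057, edgeR).

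**Figure D2:**
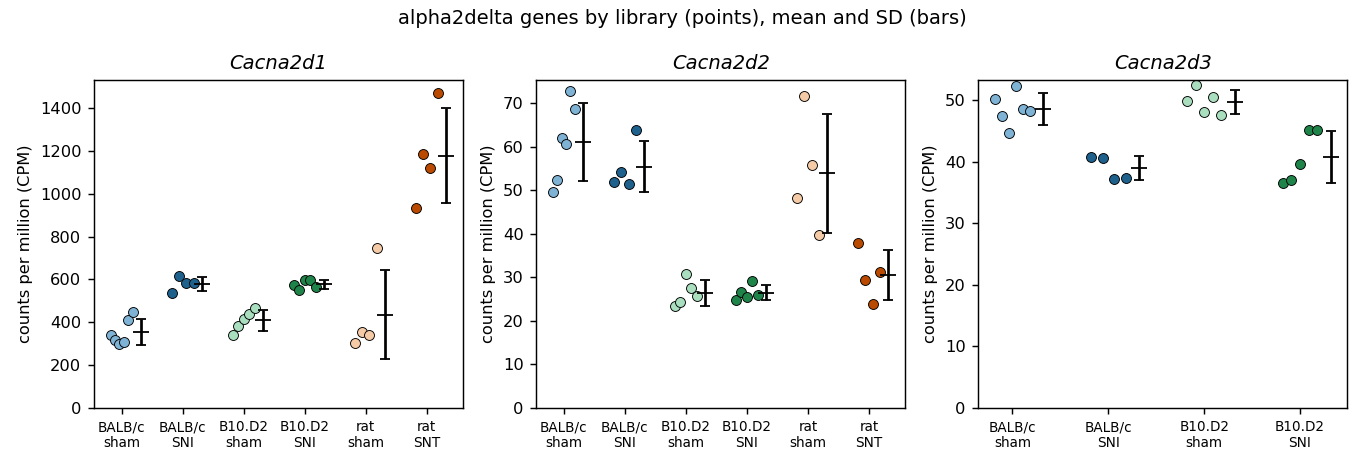
CPM of the 3 alpha2delta genes, 1 point per library, with the mean and SD of each group beside its points and the y axis from 0. Injured and sham libraries do not overlap for Cacna2d1 in any of the 3 comparisons, for Cacna2d3 in mouse, or for Cacna2d2 in rat.

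As a share of the summed CPM per kb of Cacna2d1, Cacna2d2 and Cacna2d3, Cacna2d1 made up 68.0% ± 2.81 (SD, n = 6) in BALB/c sham and 80.3% ± 1.16 (SD, n = 4) in BALB/c SNI. In B10.D2 the share was 78.4% ± 1.95 (SD, n = 5) in sham and 85.3% ± 0.938 (SD, n = 5) in SNI. Cacna2d3 went from 13.5% ± 1.80 (SD, n = 6) to 7.71% ± 0.630 (SD, n = 4) in BALB/c and from 13.7% ± 1.66 to 8.56% ± 0.760 (SD, n = 5 each) in B10.D2. The summed level was 41.7 ± 5.71 CPM per kb in BALB/c sham (SD, n = 6) and 58.03 ± 2.94 in SNI (SD, n = 4), and 41.9 ± 3.98 against 54.4 ± 2.03 in B10.D2 (SD, n = 5 each). No share or sum was tested.

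None of the 7 alpha1 members passed the test after injury in either mouse strain. Counting all 10 members, 1 was called higher and 1 lower in BALB/c, where 9.69% of all features tested were called, and 1 higher and 1 lower in B10.D2, where 4.58% were. The median log2 fold change over the members was -0.01 in BALB/c and 0.05 in B10.D2, beside medians over all features of 0.00 and 0.01. In rat 1 of the 4 members tested was called higher and 1 lower, beside 27.4% of all features. Leaving out 1 library moved these shares. The B10.D2 share was 3.05%, 2.96% and 2.64% without sham 58, SNI 69 and SNI 90. The rat share was 10.6% to 15.9% without any 1 of sham A, B or C or SNT B, C or D, 34.6% without sham D, 36.1% without SNT A, and 43.9% without both of the last. With 10 or fewer genes these counts do not set the family apart from other features.

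Cacna1b had 201 ± 26.1 CPM in BALB/c sham (SD, n = 6) and 199 ± 22.8 in SNI (SD, n = 4). The log2 fold change was -0.02 (95% interval -0.21 to 0.17). In B10.D2 its log2 fold change was 0.06 (95% interval -0.12 to 0.25), and in rat -0.06 (95% interval -0.45 to 0.32), or -0.10 without sham D and SNT A. On the linear scale the intervals run from 0.867 to 1.13, from 0.919 to 1.19 and from 0.734 to 1.25. Cacna1a, the pore of P/Q-type channels, had log2 fold changes of -0.11 in both strains (95% intervals -0.35 to 0.12 and -0.34 to 0.12). Cacna1e, the pore of R-type channels, had 0.15 in BALB/c (95% interval -0.13 to 0.42) and 0.24 in B10.D2 (95% interval -0.03 to 0.51), and sham and SNI libraries overlapped in both.

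Cacna1c, an L-type pore, had 161 ± 23.7 CPM in BALB/c sham (SD, n = 6) and 157 ± 9.82 in SNI (SD, n = 4). Its log2 fold changes were -0.03 in BALB/c (95% interval -0.20 to 0.14), 0.05 in B10.D2 (95% interval -0.12 to 0.22) and -0.12 in rat (95% interval -0.37 to 0.14, and also -0.12 without sham D and SNT A). Of the T-type pores, Cacna1h had 0.00 (95% interval -0.30 to 0.31) and 0.13 (95% interval -0.17 to 0.43) in the 2 strains. Cacna1g and Cacna1i, at 2.33 to 9.41 CPM over all mouse libraries, had wider intervals: -0.13 to 0.57 and -0.60 to 0.09 for Cacna1g, and -0.16 to 0.43 and -0.24 to 0.34 for Cacna1i. The make-up of the alpha1 members by level per kb stayed close between sham and SNI, with Cacna1b at 46.2% to 46.8% in each of the 4 groups.

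**Figure D3:**
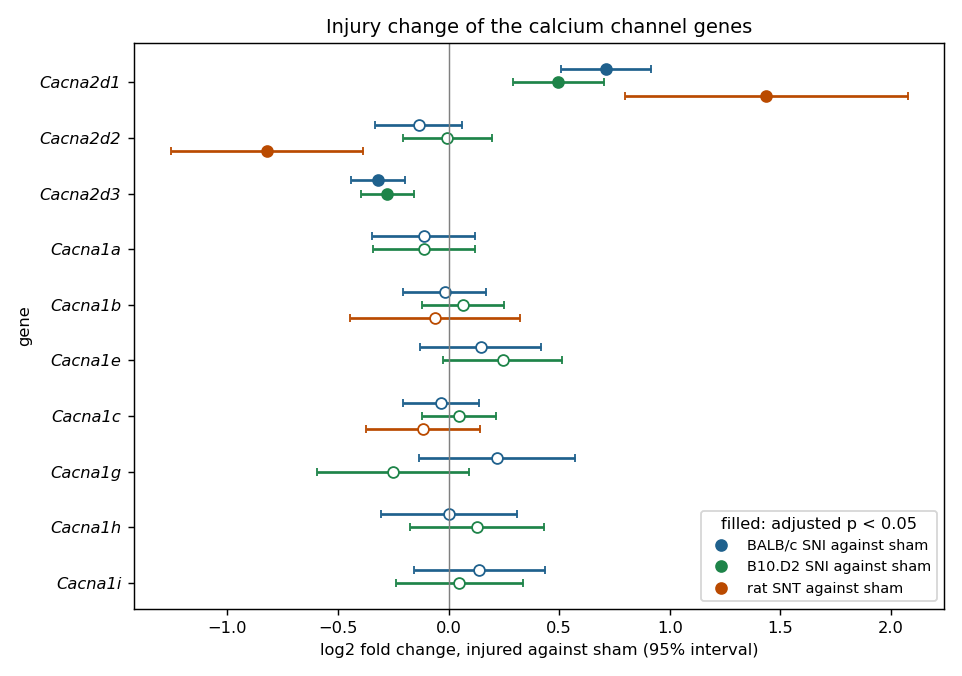
Log2 fold change of injured against sham for each gene with its 95% interval, for BALB/c, B10.D2 and rat, with filled points where the adjusted p is under 0.05. The filled points are Cacna2d1 in all 3 comparisons, Cacna2d3 in both mouse strains and Cacna2d2 in rat.

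**Figure D4:**
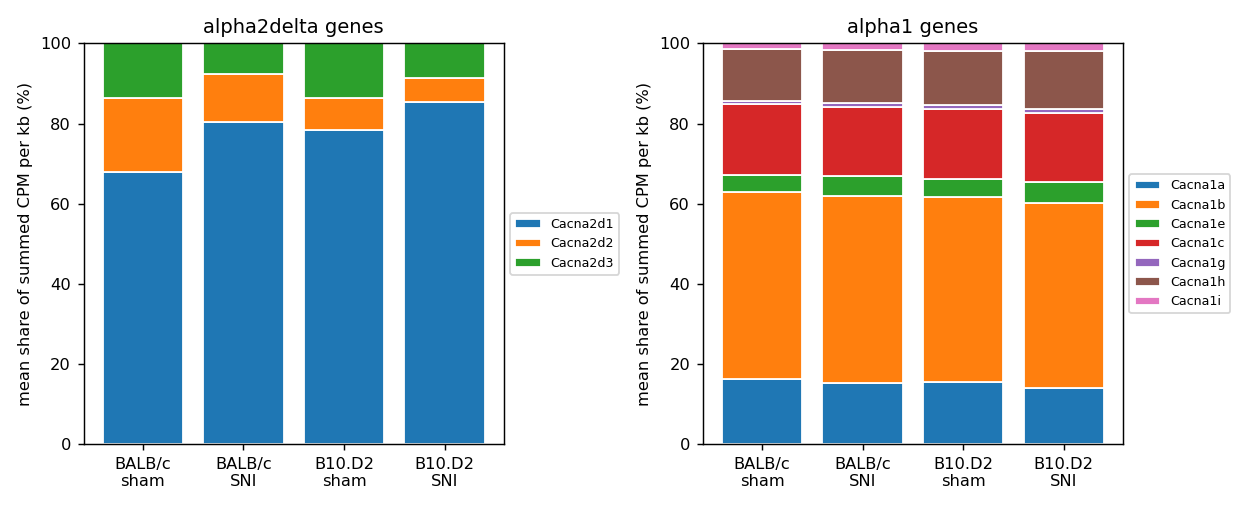
Mean share of each gene in the summed CPM per kb of the members of its subunit class, in the 4 mouse groups, as stacked bars that add to 100%. Cacna1d, Cacna1f, Cacna1s and Cacna2d4 are not in the sums. Cacna2d1 takes a larger share of the alpha2delta members in SNI than in sham in both strains. Cacna1b takes 46.2% to 46.8% of the alpha1 members throughout.

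The injury changes of the strains were compared by the interaction term. No member was called by edgeR, none had an unadjusted p under 0.05, and DESeq2 called none. Over all features 0.0243% were called. For Cacna2d1 the log2 change in B10.D2 minus that in BALB/c was -0.22 (95% interval -0.51 to 0.07). For Cacna2d3 it was 0.04 (95% interval -0.13 to 0.21), and for Cacna1g -0.47 (95% interval -0.96 to 0.02).

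In sham ganglia 2 of the 10 members differed between strains, beside 21.6% of all features. Cacna2d2 was lower in B10.D2, with 23.3, 24.4, 30.7, 27.5 and 25.7 CPM (58, 60, 67, 77 and 88) against 49.5, 61.3 and 72.9 CPM as lowest, median and highest of BALB/c sham. The lowest BALB/c library was well above the highest B10.D2 library. The fold was 2.31 (log2 -1.21 ± 0.0924 SE, adjusted p = 2.16e-09, edgeR). In SNI the strains also did not overlap, at 24.7 to 29.2 CPM in B10.D2 and 51.5 to 63.9 CPM in BALB/c.

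Cacna1g was higher in B10.D2 sham, with 5.17, 5.22, 3.45, 4.60 and 3.77 CPM against 2.33 to 3.64 CPM in BALB/c, and library 67 lay inside the BALB/c range. The log2 difference was 0.52 ± 0.158 (SE, adjusted p = 0.0206, edgeR). The adjusted p was 0.058 without BALB/c sham 51, 0.0616 without B10.D2 sham 58 and 0.0614 without B10.D2 sham 60. Cacna1i had a log2 difference of 0.37 ± 0.133 (SE, adjusted p = 0.0513, edgeR), and Cacna2d1 one of 0.21 (95% interval 0.02 to 0.40, adjusted p = 0.12, edgeR). Between females and males no member was called, beside 0.243% of all features. None had an unadjusted p under 0.05 there, and DESeq2 called none.

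Other genes of the channel complex were read from lists. The share of all features called after injury was 9.69% in BALB/c, 4.58% in B10.D2 and 27.4% in rat. Counts in these lists and in the marker lists below are read beside these shares. No list was tested as a set. In BALB/c the beta subunits, which bind alpha1 inside the cell, had 1 of 4 tested genes called, Cacnb4, lower by 0.28 on the log2 scale (adjusted p = 0.0175, edgeR). Of 6 gamma genes tested 1 was called, Cacng2, which encodes an AMPA receptor auxiliary protein, with a log2 fold change of -0.62 (adjusted p = 0.0139, edgeR). Cacna1d, an L-type pore, was the 1 called of 3 other pore and alpha2delta genes tested, at -0.24 (adjusted p = 0.032, edgeR). None of these 3 lists had a called gene in B10.D2 by edgeR, where 2, 2 and 0 genes had an unadjusted p under 0.05. In rat Cacnb4 and Cacng2 were also lower, at -0.65 (adjusted p = 0.0134, edgeR) and -1.81 (adjusted p = 0.0146, edgeR), being 1 of 2 beta and 1 of 4 gamma genes tested.

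Among 8 tested proteins that regulate the channels, Rem2, a small GTP-binding inhibitor of calcium current, was lower in BALB/c SNI (log2 -0.48, adjusted p = 0.00251, edgeR), and the related Rrad was higher (log2 0.42, adjusted p = 0.0496, edgeR). The list's median log2 fold change was -0.09. In B10.D2 none of 8 was called and 3 had an unadjusted p under 0.05. In rat 1 of 5 was called, Rem1, which was higher (log2 0.92, adjusted p = 0.0107, edgeR).

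Of 8 reported partners of alpha2delta, thrombospondin gene Thbs2 was higher in BALB/c SNI (log2 0.67, adjusted p = 0.027, edgeR), and Grin1, the obligatory NMDA receptor subunit, was lower (log2 -0.41, adjusted p = 0.000319, edgeR). None was called in B10.D2, where 2 had an unadjusted p under 0.05. In rat 3 of 6 were called: Thbs1 (log2 0.87, adjusted p = 0.0151, edgeR) and Thbs2 (log2 1.57, adjusted p = 0.0453, edgeR) were higher, and Grin1 was lower (log2 -0.99, adjusted p = 0.0285, edgeR).

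The list of 17 calcium store and pump genes had 3 called higher and 4 lower in BALB/c, and 2 higher and 3 lower in B10.D2, with medians of -0.02 and 0.05. Itpr1, the inositol trisphosphate receptor of the endoplasmic reticulum, was higher by 0.71 in BALB/c (adjusted p = 2.4e-05, edgeR) and by 0.62 in B10.D2 (adjusted p = 0.000269, edgeR) on the log2 scale. Ryr2, a ryanodine receptor, was lower in both (log2 -0.30 and -0.27, adjusted p = 0.00331 and 0.0112, edgeR). Atp2b3, a plasma membrane calcium pump, was lower in BALB/c (log2 -0.39, adjusted p = 0.000272, edgeR) and in B10.D2 (log2 -0.22, adjusted p = 0.0398, edgeR). Atp2b4, another such pump, was higher in BALB/c (log2 0.33, adjusted p = 0.0208, edgeR) and in B10.D2 (log2 0.37, adjusted p = 0.0147, edgeR). In rat 3 of 8 tested were called, all lower, beside 15.1% of all features called lower. They were Ryr3 (log2 -0.75, adjusted p = 0.0106, edgeR), Atp2b3 (log2 -1.87, adjusted p = 0.0108, edgeR) and Atp2b2 (log2 -0.84, adjusted p = 0.0209, edgeR).

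Without rat sham D and SNT A, the genes of these lists named in rat were called in the same direction. This fit favours larger differences, and 43.9% of all features were called in it, against 27.4% with all libraries. Cacnb4 had a log2 fold change of -0.70, Cacng2 of -2.37, Rem1 of 1.03, Thbs1 of 1.09, Thbs2 of 2.29, Grin1 of -1.33, Ryr3 of -0.86, Atp2b3 of -2.44 and Atp2b2 of -1.05. Counts per list were 2 of 2 beta genes and 2 of 4 gamma genes lower, 2 of 5 regulators higher and 1 lower, 4 of 6 partners higher and 1 lower, and 1 of 8 store and pump genes higher and 3 lower.

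Cacna2d1 lies at chr5:15934691-16374511 on the plus strand (mm10). Within its intron 4 (16025866 to 16162992, in the transcript with most exons) the authors assembled LncRNA938 on the same strand, with exons at 16049517 to 16050709 and at 16100887 to 16101105. The gap between the exons coincided with no deposited splice junction. The 60 bases around each side of the gap are shown because they decide how the exons are joined, with the 2 gap bases next to the exon in capitals.
Left side, chr5:16050680-16050739: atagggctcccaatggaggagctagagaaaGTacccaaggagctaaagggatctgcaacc
Right side, chr5:16100857-16100916: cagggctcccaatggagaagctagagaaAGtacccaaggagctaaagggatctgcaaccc
Shifted by 1 base against each other, the sides were identical at 57 of 59 positions, and at 195 of 199 and 344 of 399 positions in longer windows. Reads over such a pair can be placed on either copy, so the exon structure is uncertain.

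LncRNA938 moved with Cacna2d1. The BALB/c sham libraries had 2.68, 3.44 and 4.57 CPM as lowest, median and highest value, and SNI libraries 49, 64, 65 and 70 had 5.93, 8.20, 7.83 and 6.44 CPM. In B10.D2 the sham libraries 58, 60, 67, 77 and 88 had 4.06, 4.43, 3.75, 5.22 and 4.59 CPM, and SNI libraries 69, 76, 78, 89 and 90 had 6.81, 5.64, 6.76, 7.52 and 7.08 CPM. Neither strain had overlap. The fold was 1.997 in BALB/c (log2 0.998 ± 0.133 SE, adjusted p = 3.72e-05, edgeR) and 1.54 in B10.D2 (log2 0.63 ± 0.131 SE, adjusted p = 0.00677, edgeR). Mouse libraries were ribodepleted, and reads of unspliced Cacna2d1 RNA in this intron cannot be told apart from a separate transcript on the same strand.

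Across the loci of the members 14 assembled LncRNAs lay within the span or within 10 kb, and 11 passed the filter on low counts. LncRNA938 was the 1 called after injury in each strain. The called share of everything tested was 9.69% for BALB/c SNI and 4.58% for B10.D2 SNI. With 11 tested, 1 call does not set the LncRNAs at these loci apart. In sham 4 of the 11 were called higher in B10.D2 than in BALB/c, beside 11.5% of all features. They were LncRNA1612 at Cacna1a and LncRNA1332, LncRNA1333 and LncRNA1334 within Cacna1c, all on the strand of the gene. As for LncRNA938, reads of unspliced RNA of these genes cannot be told apart from separate transcripts. LncRNA1333 had 48.0 to 52.0 CPM in B10.D2 sham against 36.0 to 42.8 in BALB/c sham (log2 0.36 ± 0.0509 SE, adjusted p = 1.63e-05, edgeR). LncRNA1612 had 13.1 to 18.4 against 10.6 to 12.7 CPM (log2 0.48 ± 0.085 SE, adjusted p = 0.000231, edgeR). Cacna1c and Cacna1a did not pass the test in the same comparison, with log2 differences of 0.01 (95% interval -0.15 to 0.17) and -0.03 (95% interval -0.25 to 0.19).

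The 5 features whose log2 CPM was most like that of Cacna2d1 over the 20 mouse libraries were Gfra3 (Pearson's r = 0.947), a GDNF family receptor of nociceptors, D430019H16Rik (0.947), LncRNA938 (0.941), Gm43490 (0.94), and Adcyap1 (0.936), which encodes the neuropeptide PACAP. These libraries share the separation of sham from SNI. Within groups, r was 0.887 for Gfra3, 0.864 for D430019H16Rik, 0.663 for LncRNA938, 0.659 for Gm43490 and 0.795 for Adcyap1. Gm43490, an annotated transcript at 16107129 to 16109780 on the plus strand, lies in the same intron of Cacna2d1 as LncRNA938. It was higher in SNI by 1.08 in BALB/c (adjusted p = 2.18e-07, edgeR) and by 0.54 in B10.D2 (adjusted p = 0.00135, edgeR) on the log2 scale. Reads of unspliced Cacna2d1 RNA cannot be told apart from Gm43490 either.

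Markers of other states and cells moved with injury too. All 7 markers of injured neurons were higher in SNI in both strains, and their summed level was 156 to 211 CPM in BALB/c sham, 551 to 700 in BALB/c SNI, 176 to 211 in B10.D2 sham and 264 to 464 in B10.D2 SNI. In rat 4 of 4 tested were higher, with sums over 5 counted genes of 124, 143, 130 and 406 CPM in sham libraries A, B, C and D, and of 543 to 830 in SNT, while Atf3 and Gap43 were listed at 0. Sham D was thus high in both these markers and Cacna2d1.

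Macrophage markers were called higher in BALB/c SNI for 3 of 4 genes, with summed levels of 74.4 to 172 CPM in sham and 158 to 224 in SNI. In B10.D2 they were called for 0 of 4 by edgeR, with 4 at an unadjusted p under 0.05, and sums were 120 to 144 and 130 to 228.7 CPM. Nociceptor markers were called for 0 of 6 genes in both strains by edgeR, with 2 and 1 at an unadjusted p under 0.05, and were lower for 3 of 5 tested in rat, with sums of 1940 to 3109 CPM in sham and 318 to 1899 in SNT. Neuronal markers were called lower for 1 of 5 genes and higher for 0 in each mouse strain by edgeR, with 3 and 2 at an unadjusted p under 0.05. Mean Snap25 went from 997 to 700 CPM in BALB/c and from 1012 to 741 in B10.D2. Mean Tubb3 did not fall, at 2197 and 2359 CPM in BALB/c and 2244 and 2279 in B10.D2. Of 4 markers of myelinated neurons, 2 were lower in each mouse strain, and in rat 2 of 2 tested were lower. Without rat sham D and SNT A, 4 of 4 injured-neuron markers were higher, and 5 of 5 nociceptor and 2 of 2 myelinated neuron markers were lower. In bulk ganglia fewer cells of a type and less RNA per cell cannot be told apart, and the part of these markers in the changes of Cacna2d1, Cacna2d2 and Cacna2d3 was not tested. Satellite glial markers had no called gene after injury in either strain by edgeR (0 of 3, none at an unadjusted p under 0.05).

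**Figure D5:**
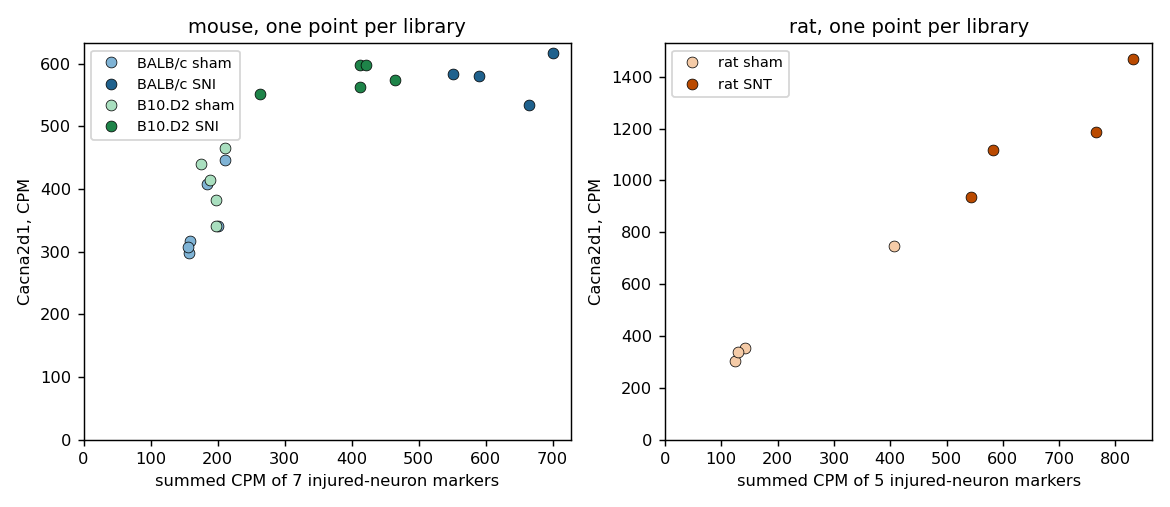
Cacna2d1 level against the summed level of injured-neuron markers, both in CPM, with 1 point per library, for mouse (7 markers) and rat (5 markers). Injured libraries lie to the right of and above sham libraries, and rat sham D, at 406 and 746 CPM, lies between the other sham and the SNT libraries.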

How the data were processed

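RNA counts from DRG of 20 mouse and 8 rat libraries were analysed. Per the study's methods, the authors aligned strand-specific read pairs with STAR (mm10 and rn6), assembled LncRNAs from reads outside gene models extended outward, and counted pairs with HTSeq (intersection, not empty). Mouse libraries were ribodepleted, and rat libraries were polyA-selected. The deposited tables hold raw counts per feature, without normalization. The authors' DESeq2 result tables (fold changes and p-values) were used for gene symbols alone, and their annotation files for positions. All reads were aligned to 1 reference per species, and an effect of strain variants on counts was not tested. Mouse samples 59 and 66 are not analysed here.

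After filterByExpr and TMM normalization, edgeR 4.0.16 (R 4.3.3) quasi-likelihood models were fitted to 24685 mouse and 13690 rat features. The mouse model held sex and strain by surgery, and the rat model surgery alone. P-values were two-sided and adjusted over all features with the Benjamini-Hochberg method, and a feature under 0.05 is called. Standard errors were derived from the F statistic and the log2 fold change, and 95% intervals use the t quantile of the fit's degrees of freedom. CPM divide counts by the library total times its TMM factor, and CPM per kb divide by the union of GENCODE M21 exons (49326 of 49585 identifiers matched). A count of 3 is 0.0716 to 0.1 CPM in mouse and 0.168 to 0.251 CPM in rat, which covers error of counting only. Scripts were tested on simulated data first. For correlations 0.5 CPM was added before the log2. Genes were named by rule: all members, at most 3 called genes per list and comparison with at least 1 CPM and the smallest adjusted p, and the 5 features most like Cacna2d1. The members and lists were chosen with earlier results of these data known. Alternatives were other normalizations, filters, DESeq2 1.42.0, models and left-out libraries. Leaving out rat sham D and SNT A was chosen after seeing the data. One called gene of a list is not reported here.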

Additional observations from a re-analysis of the deposited data

Results flagged for a closer look

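Of the 48 combinations of a gene and a group with values above 0, 1 held a library far from the others. Rat sham library D had 746 CPM of Cacna2d1, against 303 to 354 CPM in the other 3 sham libraries. Its gap to the nearest library was 0.886 of the range of the group. Chance sets apart about 1 in 20 such groups.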

How the results depend on the processing

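The counts of members called after SNI (2 in each strain), by the interaction (0) and by sex (0) kept their value under every alternative run. For strains in sham the count was 2, and 1 to 4 when 1 library was left out: 1 without BALB/c sham 51 or B10.D2 sham 60, and 4 without BALB/c sham 71, where Cacna2d1 and Cacna1i also passed. In rat it was 2, and 1 to 2 when 1 library was left out, with 1 without sham C or SNT B. In those fits 10.6% and 11.6% of all features were called, against 27.4% with all libraries (1483 and 1622 against 3753 features). The cause was not tested. Of 1424 fold changes of members under an alternative, 1409 kept their side of the threshold, 5 lost a call, 10 gained one and 0 called values reversed. Cacna1i between strains gained a call, which made the count 3, with DESeq2 (adjusted p = 0.0336), with RLE (0.0489), with no filter (0.0322), with at least 10 counts in every library (0.0474) and without the sex term (0.0452), and 0.0021 was the lowest when 1 library was left out. A number in the rat titles joins 1 sham and 1 SNT library, and the labels do not say what it stands for. Deviations from group means of libraries joined by the number correlated at 0.06, -0.28, -0.12 and -0.10. Those of other sham and SNT libraries correlated at -0.53 to 0.47. With 4 libraries per group these values cannot decide whether the number marks a pairing, and the main fit did not use it. With the number as a replicate block the rat count stayed at 2 (Cacna2d1 log2 1.53, Cacna2d2 -0.80). Depth limits Cacna1g, at 89 to 188 counts per mouse library.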

Other observations

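The skeletal muscle calcium channel gene Cacna1s was lower in B10.D2 than in BALB/c sham (log2 -2.79 ± 0.772 SE, adjusted p = 0.0116, edgeR). It had 0.217 to 0.603 CPM (median 0.555) against 0.448 to 16.7 CPM (median 1.04). Its ranges overlapped. The summed level of 3 skeletal muscle markers was 7.43 to 1146 CPM in BALB/c sham (median 32.2) and 5.72 to 16.5 CPM in B10.D2 sham. Ryr1, the ryanodine receptor of skeletal muscle, was lower in B10.D2 sham as well (log2 -1.90 ± 0.628 SE, adjusted p = 0.0336, edgeR). It had 2.53 to 3.98 CPM (median 3.95) in B10.D2 and 2.51 to 65.2 CPM (median 4.86) in BALB/c sham. These ranges also overlapped, and the highest BALB/c value was far above the median. The part of muscle RNA in these values was not tested.

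Orai1, a store-operated calcium channel, was higher in B10.D2 than in BALB/c sham (log2 0.55 ± 0.0615 SE, adjusted p = 6.76e-07, edgeR), with no overlap between groups. Of 8 tested channel regulators 4 were lower in B10.D2 sham, among them Rem1 (log2 -0.74, adjusted p = 0.000121, edgeR) and Rem2 (log2 -0.55, adjusted p = 0.000105, edgeR).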
